A study of Solanum virginianum with 24 samples.

Results

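ADC, adc1 and ODC are the genes on a tomato GeneChip whose symbols name the enzymes that open polyamine synthesis, and they were read by 6 probe sets (1 for ADC, 4 for adc1 and 1 for ODC) of the 10101 that were tested. The probe sets were chosen by gene symbol, with earlier results of the same arrays against the day of anthesis known, so their values against that day are a description. For these values the text says only whether each lay past the threshold used for all probe sets, prints no p and draws nothing from it. Each probe set is kept apart, because the 4 probe sets for adc1 gave different courses. The platform table pairs 909 probe sets with a symbol and gives no fuller name, so adc1 is read as an arginine decarboxylase from its symbol alone.

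The fruit came from eggplant of the cultivar named PPL, Solanum melongena in the series title and Solanum virginianum in the sample records, grown in a glasshouse and pollinated by hand. Ages are given in days post anthesis (dpa): fruit was taken at 5 dpa, 10 dpa, 20 dpa and 50 dpa, and at 0 dpa, the day of flowering. Each stage had 3 arrays, named in the labels as biological replicates. No group carried a mutation or a chemical treatment. The same 3 arrays of 0 dpa were normalised 4 times, once with each later stage, so the 4 comparisons share their 0 dpa arrays.

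Putrescine, the smallest of the common polyamines, is made in plants by either of the routes that these genes open. Arginine decarboxylase (ADC) turns arginine into agmatine, which is then converted to putrescine, and ornithine decarboxylase (ODC) makes putrescine directly from ornithine. Spermidine and spermine follow by addition of aminopropyl groups from decarboxylated S-adenosylmethionine, a compound whose parent also feeds ethylene synthesis. Polyamines are known for their link to cell division and fruit set, and in many fruits they are most abundant in the young ovary.

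All values below are log2 units relative to the mean of the 3 arrays of 0 dpa in the same normalisation set, unless another stage is named. The deposited values were centred on 0 for each probe set in each set, so they hold no signal level, and levels cannot be compared between genes or set against a background. Tomato probes were hybridised with eggplant RNA, and the part of sequence differences in any value was not tested. In whole fruit, fewer cells of a type and less RNA per cell cannot be told apart. "Called" means an adjusted p under 0.05 in limma over all 10101 probe sets, and the share of all probe sets called is printed beside the first count of each comparison.

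The arginine decarboxylase gene ADC stood near its 0 dpa value through 10 dpa and then fell steeply, to 9.97-fold below 0 dpa at 50 dpa. ODC was below 0 dpa at every later stage, but its change was smallest at 10 dpa. One adc1 probe set was lower by more than 3-fold at each stage, while another was not lower by a called amount at any of them. The plot of single arrays shows every value behind these statements.

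**Figure D1:**
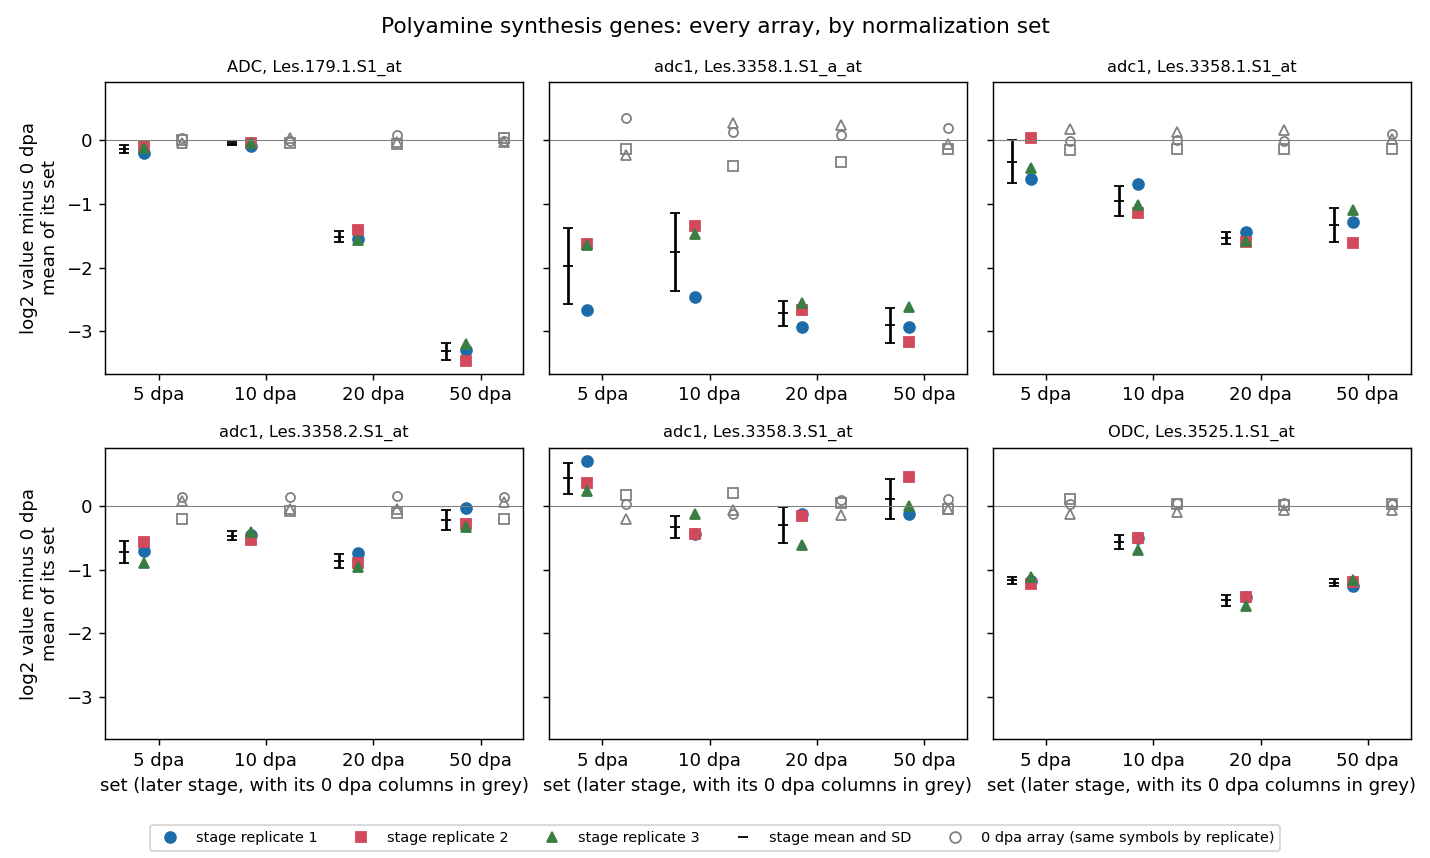
Values of the 6 probe sets on single arrays (log2 relative to the 0 dpa mean of the same normalisation set, vertical axes), with the 3 arrays of each later stage beside the 3 arrays of 0 dpa normalised with it. ADC leaves the 0 dpa arrays clearly at 20 and 50 dpa, ODC lies below them at all 4 stages, and the adc1 probe sets differ among themselves.

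ADC (probe set Les.179.1.S1_at) read -0.21, -0.09 and -0.12 on the arrays of 5 dpa, against 0.04, -0.00042 and -0.04 on the 0 dpa arrays of that set. At 10 dpa it read -0.08, -0.05 and -0.04, against -0.0023, -0.04 and 0.04 at 0 dpa. The stage arrays lay just under the 0 dpa arrays in both sets, and the changes of -0.14 ± 0.079 and -0.06 ± 0.073 (SE, n = 3 arrays per stage) were not called.

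ADC read -1.55, -1.41 and -1.57 at 20 dpa, against 0.09, -0.06 and -0.03 at 0 dpa. At 50 dpa it read -3.29, -3.46 and -3.20, against -0.01, 0.04 and -0.02 at 0 dpa. All 3 arrays of both stages lay far below all 3 arrays of 0 dpa. The change was -1.51 ± 0.084 at 20 dpa, 2.85-fold lower, and -3.32 ± 0.090 at 50 dpa, 9.97-fold lower. At 50 dpa only 0.356% of the probe sets tested had a lower value than ADC, against 44.8% at 10 dpa.

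ODC (Les.3525.1.S1_at) read -1.17, -1.22 and -1.12 at 5 dpa, against 0.03, 0.10 and -0.13 at 0 dpa. At 10 dpa it read -0.51, -0.50 and -0.69, against 0.05, 0.04 and -0.09 at 0 dpa. The arrays did not overlap at either stage, and the 10 dpa arrays were the closest to 0 dpa of the 4 stages.

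At 20 dpa ODC read -1.43, -1.43 and -1.58, against 0.05, 0.02 and -0.07 at 0 dpa. At 50 dpa it read -1.26, -1.20 and -1.16, against 0.03, 0.03 and -0.06 at 0 dpa. The changes were -1.17 ± 0.090 at 5 dpa, -0.57 ± 0.087 at 10 dpa, -1.48 ± 0.082 at 20 dpa and -1.20 ± 0.077 at 50 dpa, all called lower. As folds, ODC was lower by 2.25-fold, 1.48-fold, 2.79-fold and 2.31-fold in that order of stages.

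The adc1 probe set Les.3358.1.S1_a_at gave the largest change of the 4 for this gene. It read -2.67, -1.62 and -1.64 at 5 dpa, against 0.36, -0.13 and -0.22 at 0 dpa. At 10 dpa it read -2.46, -1.34 and -1.47, against 0.13, -0.40 and 0.27 at 0 dpa. Replicate 1 lay about 1 log2 unit below the other arrays of its stage both times, and without that array the changes were -1.63 at 5 dpa and -1.41 at 10 dpa, still called.

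The same probe set read -2.93, -2.66 and -2.56 at 20 dpa, against 0.09, -0.34 and 0.25 at 0 dpa. At 50 dpa it read -2.94, -3.17 and -2.62, against 0.20, -0.14 and -0.06 at 0 dpa. No stage array overlapped the 0 dpa arrays, and the changes at the 4 stages were -1.98 ± 0.28, -1.76 ± 0.29, -2.72 ± 0.16 and -2.91 ± 0.15. They correspond to values 3.94-fold, 3.39-fold, 6.59-fold and 7.50-fold lower than at 0 dpa. Its 0 dpa arrays moved with the normalisation more than those of the other members, with replicate 3 between -0.22 and 0.27 across the 4 sets.

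The probe set Les.3358.1.S1_at, which the table ties to the same sequence record as the one before, showed a smaller and later fall. It read -0.61, 0.04 and -0.43 at 5 dpa, against -0.02, -0.16 and 0.17 at 0 dpa. These arrays overlapped, and the change of -0.34 ± 0.17 was not called. Without 5 dpa replicate 2, the array at 0.04, the change was -0.52 and was called.

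At 10 dpa Les.3358.1.S1_at read -0.68, -1.14 and -1.01, against 0.00046, -0.14 and 0.14 at 0 dpa. It read -1.43, -1.60 and -1.57 at 20 dpa, against -0.02, -0.14 and 0.16 at 0 dpa, and all stage arrays of both sets lay below those of 0 dpa. At 50 dpa the arrays lay between -1.61 and -1.09, against -0.13 to 0.10 at 0 dpa. The changes were -0.95 ± 0.13, -1.54 ± 0.099 and -1.33 ± 0.14, all called lower.

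Les.3358.2.S1_at was lower through 20 dpa and back near its 0 dpa value at 50 dpa. It read -0.70, -0.57 and -0.90 at 5 dpa, against 0.14, -0.21 and 0.07 at 0 dpa. The arrays of 10 dpa read -0.46, -0.54 and -0.41, against 0.14, -0.09 and -0.05 at 0 dpa. In both sets the stage arrays lay wholly below those of 0 dpa. It read -0.75, -0.89 and -0.96 at 20 dpa, against 0.16, -0.12 and -0.05 at 0 dpa. At 50 dpa it read -0.03, -0.29 and -0.33, against 0.14, -0.20 and 0.06 at 0 dpa, where the arrays overlapped. The changes were -0.72 ± 0.12, -0.47 ± 0.089 and -0.87 ± 0.10 at 5, 10 and 20 dpa, called lower, and -0.22 ± 0.12 at 50 dpa, not called.

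Les.3358.3.S1_at was the exception in direction. It read 0.70, 0.36 and 0.24 at 5 dpa, against 0.03, 0.18 and -0.21 at 0 dpa, and the change of 0.44 ± 0.14 was called higher. That call ended in the methods' t-test, in one fit of all 15 arrays and without any of 4 single arrays (5 dpa replicate 1 or 2, 0 dpa replicate 1 or 3). Its later arrays read -0.44, -0.43 and -0.12 at 10 dpa, -0.12, -0.16 and -0.62 at 20 dpa, and -0.13, 0.46 and 0.00090 at 50 dpa. The 0 dpa arrays of those sets lay between -0.15 and 0.20, and they overlapped the stage arrays at 10, 20 and 50 dpa. The changes of -0.33 ± 0.12, -0.30 ± 0.14 and 0.11 ± 0.15 at these stages were not called. At 10 dpa and at 20 dpa this held in 10 of 11 alternatives, and the remaining one gave a lower call.

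Counted together, 3 probe sets were called lower and 1 higher of the 6 at 5 dpa, where 16.4% of all probe sets were called lower and 15.6% higher (32.0% in either direction). At 10 dpa 4 were called lower and 0 higher, beside 19.4% of all probe sets lower and 35.3% in either direction. At 20 dpa 5 were called lower and 0 higher, beside 20.1% and 37.9%, and at 50 dpa 4 lower and 0 higher, beside 19.5% and 40.0%. Since the genes were chosen with these comparisons known, nothing is read from the counts.

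A called fall of at least 2-fold was seen for 2 of the 6 at 5 dpa, where 1.75% of all probe sets fell that far. It was seen for 1 at 10 dpa (1.9% of all), 4 at 20 dpa (2.18%) and 4 at 50 dpa (4.3%). The stage and 0 dpa arrays did not overlap for 5 of the 6 at 5, 10 and 20 dpa and for 4 at 50 dpa, beside 46.8%, 46.7%, 49.4% and 50.8% of all probe sets. ODC and the adc1 probe set Les.3358.1.S1_a_at were called lower at all 4 stages, as were 4.16% of all probe sets. The median over the 6 was -0.53, -0.52, -1.50 and -1.27 at 5, 10, 20 and 50 dpa, beside medians between -0.0254 and 0.0214 over all probe sets.

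**Figure D2:**
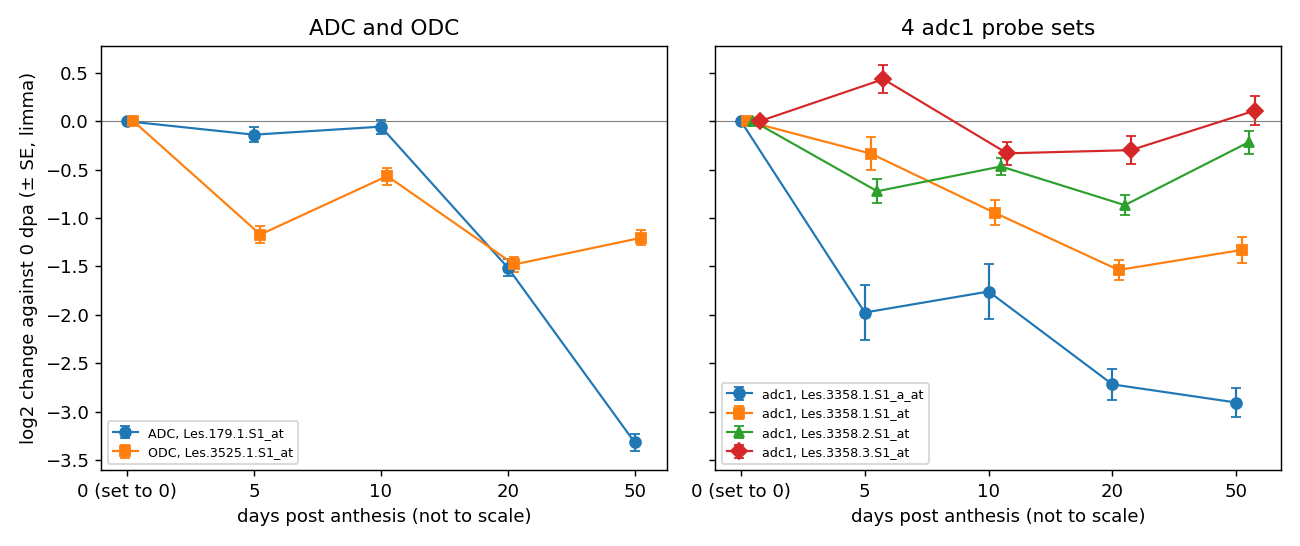
Mean change of each probe set at 5, 10, 20 and 50 dpa (days post anthesis, horizontal axis) in log2 units relative to 0 dpa (vertical axis), with standard errors from limma and 3 arrays per stage. ADC stays near 0 through 10 dpa and reaches -3.32 at 50 dpa, while ODC moves between -0.57 and -1.48.

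Neighbouring stages were then set against each other, through the 0 dpa mean that each array was scaled to, with all 12 later arrays in one limma fit. Each difference is made of values against 0 dpa that were known when the genes were chosen. The p values of the members in these steps are therefore not independent of that choice. At 10 dpa against 5 dpa, 1 of the 6 probe sets was higher and 2 were lower, beside 10.3% of all probe sets higher, 12.2% lower and 22.5% in either direction. At 20 dpa against 10 dpa, 0 were higher and 5 were lower, beside 17.0%, 17.3% and 34.3%. At 50 dpa against 20 dpa, 2 were higher and 1 was lower, beside 19.3%, 15.5% and 34.7%.

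ADC fell in each of the later steps. At 20 dpa against 10 dpa the log2 difference was -1.46 ± 0.085 (limma adjusted p = 4.78e-08). At 50 dpa against 20 dpa it was -1.81 ± 0.085 (limma adjusted p = 2.38e-09). The difference of 10 dpa from 5 dpa was 0.08 ± 0.085 (limma adjusted p = 0.528).

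ODC changed direction at each step. It was higher at 10 dpa than at 5 dpa by 0.60 ± 0.082 (limma adjusted p = 0.000214), and lower at 20 dpa than at 10 dpa, with a difference of -0.91 ± 0.082 (limma adjusted p = 2.18e-06). At 50 dpa it was higher than at 20 dpa by 0.28 ± 0.082 (limma adjusted p = 0.019). This last call ended without 20 dpa replicate 3 (adjusted p = 0.0789) or without 50 dpa replicate 3 (adjusted p = 0.0642) in the same limma fit.

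Of the adc1 probe sets, Les.3358.2.S1_at was lower at 20 dpa than at 10 dpa (-0.40 ± 0.11, limma adjusted p = 0.0111) and higher at 50 dpa than at 20 dpa (0.65 ± 0.11, limma adjusted p = 0.00037). Les.3358.3.S1_at was lower at 10 dpa than at 5 dpa (-0.77 ± 0.18, limma adjusted p = 0.00833, and 0.0734 in the methods' t-test). Les.3358.1.S1_at was lower in both of the first steps, with differences of -0.61 ± 0.17 (limma adjusted p = 0.0228) and -0.59 ± 0.17 (limma adjusted p = 0.0183). Les.3358.1.S1_a_at was lower at 20 dpa than at 10 dpa, with a difference of -0.96 ± 0.31 (limma adjusted p = 0.027).

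The calls of the last pair of probe sets depended on single arrays, and all 3 ended in the methods' t-test. For Les.3358.1.S1_at, the first step's call ended when replicate 2 of 5 dpa, or replicate 2 or 3 of 10 dpa, was left out (limma adjusted p = 0.0835, 0.0882 and 0.0762). Replicate 1 of 10 dpa and replicates 2 and 3 of 20 dpa each decided the second step's call, which ended without any one of them (limma adjusted p = 0.083, 0.0577 and 0.0501). For Les.3358.1.S1_a_at, the call ended without 10 dpa replicate 2 or 3 or 20 dpa replicate 1 or 2, with adjusted p between 0.0566 and 0.111 in limma.

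**Figure D3:**
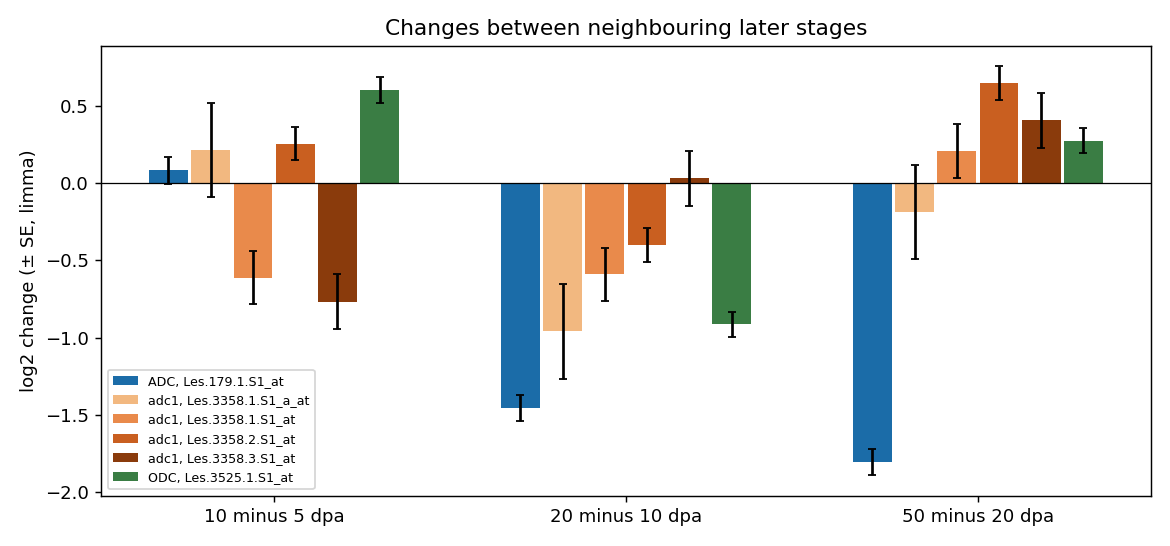
Difference between neighbouring stages for each of the 6 probe sets (log2, with limma standard errors, 12 later arrays in one fit). ADC falls at 20 dpa against 10 dpa and at 50 dpa against 20 dpa, whereas ODC is higher, lower and higher in the 3 steps.

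The single probe sets of ADC and ODC could be set against each other on the same arrays, as the change of ADC minus the change of ODC. That difference was 1.03 ± 0.075 at 5 dpa, 0.51 ± 0.096 at 10 dpa, -0.03 ± 0.057 at 20 dpa and -2.11 ± 0.077 at 50 dpa (SE, n = 3 arrays per stage). It rests on the values against 0 dpa that were known when the genes were chosen, so it is given without a test. The within-array differences of stage and 0 dpa did not overlap at 5, 10 and 50 dpa, and they overlapped at 20 dpa. The change of ADC was above that of ODC at 5 and 10 dpa and below it at 50 dpa. The adc1 probe sets did not share one course against ODC. Their changes minus that of ODC ran from -0.81 (Les.3358.1.S1_a_at) to 1.61 (Les.3358.3.S1_at) at 5 dpa. At 50 dpa they ran from -1.70 to 1.31 for the same probe sets.

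Differences among the adc1 probe sets were taken in the same way. The change of Les.3358.1.S1_a_at minus that of Les.3358.1.S1_at was -1.64 ± 0.33, -0.81 ± 0.51, -1.18 ± 0.19 and -1.58 ± 0.066 at the 4 stages, low to high. Minus that of Les.3358.3.S1_at it was -3.02 ± 0.31 at 50 dpa. Across 15 arrays, which share their 0 dpa baselines, Les.3358.1.S1_a_at had a Pearson r of 0.80 with Les.3358.1.S1_at and 0.87 with ODC. ADC had an r of 0.58 with ODC. Les.3358.3.S1_at had values between -0.0865 and 0.31 with the other 5. Whether the 4 adc1 probe sets read one eggplant transcript or several was not tested.

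The courses most like those of the members were sought by Pearson r over the 15 arrays among 696 probe sets with a gene symbol, and the 3 highest for each member are named. For ADC they were TBG1, a beta-galactosidase gene (0.98), EXPA4, an expansin gene (0.98), and CELLULASE (0.98), all named for enzymes or proteins that act on the cell wall. For ODC they were TMT (0.94), the ACC oxidase gene ACO6 in its probe set Les.3225.1.A1_at (0.93), and the inositol monophosphatase gene IMP3 (0.92). Other ACO6 probe sets did not share the course of ODC between 5 and 10 dpa. At 10 dpa against 5 dpa the difference was -0.75 for Les.3225.2.S1_at and -0.56 for Les.3225.3.S1_at, against 0.60 for ODC. For the adc1 probe set Les.3358.1.S1_a_at they were GABA-TP3 (0.92), TSW12 (0.91) and DHAR1, a dehydroascorbate reductase gene (0.91).

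For Les.3358.1.S1_at the nearest were HDS (0.93), a gene of plastid isoprenoid synthesis, SPM1 (0.92) and Prg1 (0.91). For Les.3358.2.S1_at they were the ethylene receptor gene ETR1 (0.89), eIF-5A2 (0.85) and the ethylene signalling gene EIN2 (0.84). For Les.3358.3.S1_at they were CTR3 (0.84), the chitinase gene CHI9 (0.76) and TPI (0.75), the lowest values of the 6. The cell wall genes were picked for their likeness to ADC on these arrays, so that choice favours a shared 50 dpa fall. Their changes at 50 dpa were -4.66 ± 0.10 for EXPA4, -2.54 ± 0.10 for CELLULASE and -1.95 ± 0.13 for TBG1. At 5 and 10 dpa, where ADC was not called, EXPA4 had changes of -0.908 and -0.995. CELLULASE had changes of 0.554 and 0.117 at these stages, and TBG1 had changes of 0.124 and 0.0766.

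Other genes around polyamine synthesis were taken from lists by symbol. The lists, and the genes printed from them, were chosen with earlier results of these data known. Their p values are therefore not independent of that choice. Between agmatine and putrescine the array has CPA, whose symbol names N-carbamoylputrescine amidase, the enzyme that releases putrescine at the end of the arginine route. CPA had changes of -0.17 ± 0.078 and 0.01 ± 0.12 at 5 and 10 dpa, which were not called. At 20 dpa it fell by 0.32 ± 0.098 (limma adjusted p = 0.032), and at 50 dpa its change of -0.23 ± 0.083 was not called (limma adjusted p = 0.0613). The 20 dpa call ended without 20 dpa replicate 2 or 3, without any single 0 dpa array and in the methods' t-test.

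Arginase turns arginine into ornithine, so it draws on the substrate of ADC and supplies that of ODC. The arginase gene ARG1 read 0.72, 0.58 and 0.56 at 50 dpa, against 0.05, -0.02 and -0.03 at 0 dpa. It was higher than at 0 dpa by 0.62 ± 0.081 (limma adjusted p = 0.000471). Its arrays did not overlap, as was so for 50.8% of all probe sets at 50 dpa. It was also higher at 50 dpa than at 20 dpa, by 0.97 ± 0.11 (limma adjusted p = 1.44e-05). At 10 dpa ARG1 fell by 0.54 ± 0.15 (limma adjusted p = 0.0239), a call that ended without 10 dpa replicate 2 or 3 or 0 dpa replicate 3 and in the methods' t-test.

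ARG2, a second arginase gene with 3 probe sets, was lower before 50 dpa in its probe set Les.3299.2.A1_s_at. That probe set had called changes of -0.70 ± 0.14, -0.72 ± 0.10 and -0.55 ± 0.11 at 5, 10 and 20 dpa (limma adjusted p = 0.00665, 0.000679 and 0.00514), and at 50 dpa its change was 0.23 ± 0.094 (limma adjusted p = 0.0877). Its 5 dpa call ended in the methods' t-test. The ARG2 probe set Les.3299.1.S1_at had changes of -0.11, -0.01 and -0.41 at 5, 10 and 20 dpa, none called. LesAffx.1.1.S1_at had changes of -0.31 and -0.29 at 5 and 10 dpa, not called. Its change of -0.35 at 20 dpa was called (limma adjusted p = 0.0195), but not in the methods' t-test. All 4 arginase probe sets were higher at 50 dpa than at 20 dpa, the 3 of ARG2 by 0.78 ± 0.091, 0.90 ± 0.24 and 0.76 ± 0.14 (limma adjusted p = 1.88e-05, 0.0106 and 0.000848). The second of these calls ended without 20 dpa replicate 1, and both it and the last one ended in the methods' t-test. Over the same step ADC fell by 1.81 and ODC rose by 0.28. The call of that rise ended without 20 dpa replicate 3 or 50 dpa replicate 3. ODC was still at -1.20 against 0 dpa at 50 dpa. Whether the changes of arginase, ADC and ODC are linked was not tested.

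Of the 7 probe sets of arginine and ornithine supply and use, 0 were higher and 1 lower at 5 dpa, 0 and 3 at 10 dpa, 1 and 3 at 20 dpa, and 1 and 1 at 50 dpa. At 50 dpa against 20 dpa 5 were higher and 1 was lower. PRO2, a gene of proline synthesis, had called changes of -0.34 ± 0.077 at 10 dpa and -0.32 ± 0.075 at 20 dpa (limma adjusted p = 0.00803 and 0.00935). The symbol PRO1 stands for 2 gene identifiers in the table, so its 2 probe sets are counted without a role. The PRO1 probe set Les.42.1.S1_at gave the higher call at 20 dpa (0.39) and the lower call at 50 dpa (-0.47). It also gave the lower call at 50 dpa against 20 dpa (-0.85). Its calls against 0 dpa ended in the methods' t-test.

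**Figure D4:**
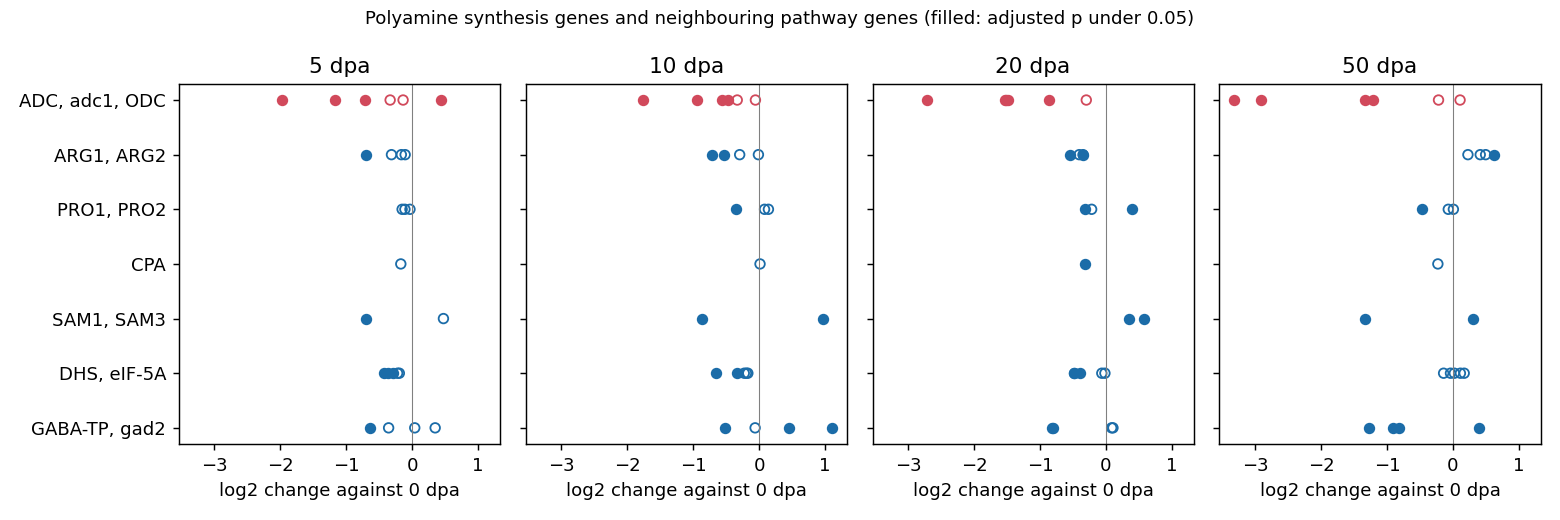
Changes of ADC, adc1 and ODC and of other genes around polyamine synthesis against 0 dpa at each stage (log2, horizontal axes shared, n = 3 arrays per stage). Filled points were called (limma adjusted p under 0.05) and open points were not. At 50 dpa ADC lies at -3.32 and SAM3 at -1.34, while ARG1 lies at 0.62 and SAM1 at 0.30.

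S-adenosylmethionine synthetase makes the compound from which both the aminopropyl groups and ethylene derive, and its genes on the array are SAM1 and SAM3. SAM1 was lower at 5 and 10 dpa, with changes of -0.70 ± 0.077 and -0.86 ± 0.080 (limma adjusted p = 0.000343 and 5.76e-05). It was higher by 0.34 ± 0.077 at 20 dpa and by 0.30 ± 0.076 at 50 dpa (limma adjusted p = 0.00806 and 0.0134). SAM3 was higher by 0.97 ± 0.11 at 10 dpa and by 0.58 ± 0.091 at 20 dpa (limma adjusted p = 0.000168 and 0.00128), and at 50 dpa it fell by 1.34 ± 0.10 (limma adjusted p = 1.98e-05). ADC and SAM3 were both lower at 50 dpa than at 20 dpa, SAM3 with a difference of -1.92 ± 0.16 (limma adjusted p = 5.48e-07).

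With the ACC synthase and ACC oxidase genes of ethylene synthesis, this list held 15 probe sets. Of these 1 was higher and 7 lower at 5 dpa, 2 and 7 at 10 dpa, 3 and 7 at 20 dpa, and 3 and 5 at 50 dpa. Among them the ACC oxidase gene ACO5 rose to 6.36 ± 0.12 at 20 dpa (limma adjusted p = 1.7e-08), while ACO4 fell to -1.91 ± 0.088 at 50 dpa (limma adjusted p = 1.41e-06).

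Spermidine is consumed when deoxyhypusine synthase (DHS) modifies the translation factor eIF-5A. Of 5 probe sets, DHS and 4 eIF-5A genes, 3 were lower at 5 dpa, 2 at 10 dpa, 3 at 20 dpa and 0 at 50 dpa, and none was higher. Without single arrays the count at 5 dpa was as low as 0 (without 0 dpa replicate 3). At 20 dpa DHS fell by 0.39 ± 0.086 (limma adjusted p = 0.00765), and at 10 dpa eIF-5A1 fell by 0.65 ± 0.079 (limma adjusted p = 0.000281). At 20 dpa eIF-5A3 fell by 0.49 ± 0.079 and eIF-5A2 fell by 0.48 ± 0.087 (limma adjusted p = 0.00153 and 0.0029). At 50 dpa against 20 dpa 3 of the 5 were higher, among them eIF-5A2 by 0.50 ± 0.071 (limma adjusted p = 9.86e-05), while the call of DHS there ended without any of 5 single arrays.

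Putrescine can be broken down to gamma-aminobutyrate (GABA), which GABA transaminases use further. Of 4 GABA probe sets 0 were higher and 1 lower at 5 dpa, 2 and 1 at 10 dpa, 0 and 2 at 20 dpa, and 1 and 3 at 50 dpa. GABA-TP3 was lower at all 4 stages (-0.65 ± 0.096, -0.51 ± 0.11, -0.80 ± 0.083 and -0.82 ± 0.091), as ODC and Les.3358.1.S1_a_at were. GABA-TP2 was higher at 10 dpa by 1.11 ± 0.11 (limma adjusted p = 9.57e-05) and at 50 dpa it fell by 1.28 ± 0.13 (limma adjusted p = 0.000142). The glutamate decarboxylase gene gad2, which makes GABA from glutamate, was higher at 10 dpa by 0.45 ± 0.11 and had called changes of -0.81 ± 0.16 at 20 dpa and -0.91 ± 0.19 at 50 dpa (limma adjusted p = 0.0111, 0.00454 and 0.00622). These 3 calls ended in the methods' t-test. GABA-TP1 was higher at 50 dpa by 0.39 ± 0.11 (limma adjusted p = 0.0227), a call that ended without 50 dpa replicate 2 or 3 or 0 dpa replicate 1 and in the methods' t-test.

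Of 9 cell division genes, 4 were higher and 0 lower at 5 dpa and again at 10 dpa, 0 and 3 at 20 dpa, and 0 and 6 at 50 dpa. The cyclin-dependent kinase gene CDKB2 was higher by 2.20 ± 0.085 at 5 dpa, where the change of ODC was -1.17 and ADC was not called. At 50 dpa the change was -3.92 ± 0.16 for CDKB2, -3.34 ± 0.071 for CYCD3, a D-type cyclin gene, and -3.32 for ADC. The median of the 9 genes at 50 dpa was -0.89. CDKA1 (-0.04), CycB2 (-0.07) and krp1 (0.18) were not called there. Of the pollen and anther genes 1 of 4 was lower at 5 dpa and at 50 dpa (LAT61, -0.38 ± 0.10 and -0.30 ± 0.072) and 0 of 4 at 10 and 20 dpa. The 5 dpa call of LAT61 ended without 0 dpa replicate 1 or 3 and in the methods' t-test. The only gene of the seed list on the array, MAN1, was not called at any stage, with changes between -0.0378 and 0.15. Whether loss of floral tissue has a part in the members' changes was not tested.

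For the actin control, the 5' signal minus the 3' signal, a measure of labelled RNA length, was higher at each stage than at 0 dpa, by 1.09 ± 0.061 at 5 dpa, 0.37 ± 0.17 at 10 dpa, 0.52 ± 0.11 at 20 dpa and 0.39 ± 0.099 at 50 dpa. For the GAPDH control the same measure was higher by 0.77 ± 0.090, 0.69 ± 0.13, 0.95 ± 0.12 and 0.32 ± 0.10 at these stages. The 36 spiked-in control probe sets had a median change of 0.98 at 5 dpa and of -0.29 to -0.17 later. The part of either in the members' changes was not tested. With 3 arrays per stage, p values weigh a mean difference against the spread between these fruit samples, and the number of arrays limits the precision. The fits between later stages take each 0 dpa mean as fixed, so its shifts between normalisations are not in their standard errors.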

How the data were processed

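Each of 15 Affymetrix tomato GeneChips measured eggplant fruit RNA. The deposited values are log2 signals that the authors made by RMA in GeneSpring GX 11.5, per the series design text, and each probe set was centred on a median of 0 within each set of 6 columns (within 1e-05 for 100% of probe sets). Positive was taken as higher; this direction was not checked against scanner values. The 24 columns were all mapped to samples by name (0 left out). Columns of one set were used together, and the 108 control probe sets were kept out of the tests.

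Each stage was compared with the 0 dpa columns of its set by the moderated two-sided test of limma 3.58.1 (R 4.3.3, functions lmFit and eBayes), with Benjamini-Hochberg adjustment over 10101 probe sets and a threshold of 0.05. Neighbouring stages were fitted over 12 arrays. The scripts were tested on simulated data. Differences between members on the same arrays are given with standard errors and no test. Members and gene lists were chosen with earlier results of these data known, and the hyphenated eIF-5A symbols were added to their list after the table was read. Genes named are all members, every probe set of lists of up to 6, of longer lists the 2 lowest p values and the 2 strongest changes, and the 3 highest correlations per member, though not each is printed. The ARG2 and PRO2 values, and the choice of genes printed from each list, were made with their values seen. Alternatives were the methods' t-test (unpaired, equal variances, used between later stages too), robust eBayes, a fit of the 6 arrays of neighbouring stages alone, one fit of 15 arrays, median centring, a replicate block and leaving out single arrays. Same-numbered arrays did not deviate together (correlations -0.0168 to 0.102), so the numbers were not used as pairs. A filter on low signal and quantile normalisation were not run, because centred values hold no level.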

Additional observations from a re-analysis of the deposited data

Results flagged for a closer look

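The change against 0 dpa differed between neighbouring stages for 11 combinations of probe set and step, each by limma's test of the difference itself (adjusted p under 0.05 over all probe sets). At 10 dpa against 5 dpa the difference was 0.60 for ODC, -0.61 for the adc1 probe set Les.3358.1.S1_at and -0.77 for Les.3358.3.S1_at. At 20 dpa against 10 dpa it was -1.46 for ADC and -0.91 for ODC. Of the adc1 probe sets it was then -0.96 for Les.3358.1.S1_a_at, -0.59 for Les.3358.1.S1_at and -0.40 for Les.3358.2.S1_at. At 50 dpa against 20 dpa it was -1.81 for ADC, 0.28 for ODC and 0.65 for Les.3358.2.S1_at. These differences are made of values against 0 dpa known when the genes were chosen, so their tests are not independent of that choice. Groups of 3 arrays are too small for a check of single outlying arrays.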

How the results depend on the processing

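The calls of ADC and ODC against 0 dpa held in all 11 alternatives at each stage, ADC between -1.56 and -1.47 at 20 dpa and between -3.38 and -3.25 at 50 dpa. The methods' t-test, adjusted by Benjamini-Hochberg, called 2113 probe sets at 5 dpa where limma called 3230, and between later stages the same t-test called 1045 at 10 dpa against 5 dpa where limma called 2269. In this t-test 1 member passed at 10 dpa against 5 dpa, where 3 passed in limma, and 3 passed at 20 dpa against 10 dpa, where 5 did. Leaving out single arrays gave 3 (without 20 dpa replicate 2), 4 or 5 members at 20 dpa against 10 dpa. ADC minus ODC at 20 dpa lay between -0.067 and 0.014, and its sign turned without 20 dpa replicate 1 (0.014). The causes were not tested. With the replicate number as a block, 3073, 3403, 3725 and 3831 probe sets were called at 5, 10, 20 and 50 dpa, and the adc1 probe set Les.3358.3.S1_at passed at 20 dpa (adjusted p = 0.0462). Of the comparisons of single members under alternatives, 419 kept their side of the threshold, 22 lost the call and 3 gained it. A change of sign where neither fit was called was counted among those that kept their side.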
